A study of Homo sapiens with 12 samples.

Results

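The BCL2 family and apoptosis regulators described here are 10 genes chosen by name from a count table of 26364 genes. They are the pro-survival genes BCL2, BCL2L1, MCL1 and BCL2A1, the pore-forming effectors BAX and BAK1, the BH3-only genes BBC3, PMAIP1 and BCL2L11, and BIRC7, an inhibitor of apoptosis (IAP). All 10 were in the table, and 9 had enough counts to be tested, while BIRC7 had not. The RNA came from A2058 cells, a line established from human melanoma, in 12 libraries. MITF overexpression libraries came from cells transduced with a lentivirus made from the LVX vector carrying MITF, the melanocyte lineage transcription factor, and empty vector libraries from cells given the LVX vector without it. Both of these were under puromycin selection. MITF siRNA libraries came from cells transfected for 48 hours with siRNA against MITF, and scrambled siRNA libraries from cells transfected with siRNA of scrambled sequence. Each group had 3 libraries, which the labels call independent biological replicates without saying what was done separately for each, so the p-values cover the spread among these samples, which may be partly technical. Whether the vector lines were pools or clones, and the siRNA sequences, are likewise not stated.

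Mitochondrial apoptosis is set by binding between proteins of the BCL2 family. Pro-survival members (BCL2, BCL-XL, MCL1 and BFL1, the last encoded by BCL2A1) hold BAX and BAK in check, and BH3-only proteins such as PUMA, NOXA and BIM bind the pro-survival proteins and free the effectors, which then open the outer mitochondrial membrane and release cytochrome c. IAP proteins act downstream, on caspases. In melanocytes and melanoma, BCL2, BCL2A1 and BIRC7 (also called ML-IAP or livin) have been reported as targets of MITF, which binds E-boxes, short DNA motifs of the form CANNTG.

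MITF itself had 658, 679 and 633 CPM in the MITF overexpression libraries, against 299, 311 and 301 CPM in the empty vector libraries (CPM is the count of a gene relative to the scaled total of its library). It had 343, 322 and 365 CPM in the MITF siRNA libraries, against 504, 465 and 431 CPM in the scrambled siRNA libraries. The order of MITF by group was thus MITF overexpression, scrambled siRNA, MITF siRNA, empty vector, with no overlap between neighbours. Total counts ran from 7427637 to 23938392 per library, and 14297 genes were tested. The MITF overexpression libraries stood apart from the other 9 along the first principal component (61.3% of the variance), and a run of 67 tested genes on chromosome 13 had a median log2 fold change of -0.50 against the empty vector; none of the 10 genes lies on that chromosome. MALAT1 took 1.22% to 1.27% of counts in the MITF overexpression libraries and 0.273% to 0.758% in the others. As all 3 libraries of the group share these features, their part in the results on MITF overexpression was not tested. All 8 melanocytic markers looked for passed the filter, and they summed to 7777 to 8437 CPM with MITF overexpression, against 3843 to 4062 CPM with the empty vector, and to 5761 to 6442 CPM with MITF siRNA, against 7108 to 8087 CPM with scrambled siRNA. Markers of other cell types were low: at most 34.4 CPM for 6 fibroblast genes, 24.4 CPM for 4 keratinocyte genes and 3.54 CPM for 4 endothelial genes in any library, and KRT5 and CD3E had no count. The 5 leukocyte genes, of which LYZ alone passed the filter, summed to 0.330 to 0.784 CPM with MITF overexpression, against 1.79 to 2.48 CPM with the empty vector, and to 6.92 to 7.91 CPM with MITF siRNA, against 3.97 to 4.74 CPM with scrambled siRNA. Within the melanocytic list 6 genes rose and 2 fell with MITF overexpression, beside 59.4% of all tested genes called. Those that fell were TYRP1 (84.5 CPM, against 203 CPM with the empty vector) and S100B (296 CPM, against 424 CPM with the empty vector). With MITF siRNA 4 genes of this list fell and S100B rose (500.4 CPM, against 337 CPM with scrambled siRNA), beside 35.4% of all tested genes called. MITF itself belongs to the list and is part of these sums and counts, rising with overexpression and falling with MITF siRNA by design. The part of these markers in the results was not tested. In bulk libraries fewer cells expressing a gene and less RNA per cell cannot be told apart.

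The promoters show which of these genes carry an E-box of the kinds MITF is known to bind close to the transcript start. In windows of 300 bases, from 250 before to 50 after the RefSeq start site (build GRCh38.p14), 9 of the 10 genes had a sequence (10 windows, since BCL2L1 has a pair). The hexamers searched were CATGTG on both strands (its reverse complement is CACATG) and CACGTG, which is its own reverse complement. The first was in 11.1% and the second in 7.256% of all 35116 promoter windows of the same length, and 17.62% held at least 1 of them. Of the 9 genes, 4 held a match: BCL2A1, BIRC7, BAX and BBC3. The windows of BCL2A1 and BIRC7, the genes with a CATGTG, and of BAX, with the most matches, are printed 5′ to 3′ with the matched hexamers in capitals.
BCL2A1, chr15:79971147-79971446, minus strand: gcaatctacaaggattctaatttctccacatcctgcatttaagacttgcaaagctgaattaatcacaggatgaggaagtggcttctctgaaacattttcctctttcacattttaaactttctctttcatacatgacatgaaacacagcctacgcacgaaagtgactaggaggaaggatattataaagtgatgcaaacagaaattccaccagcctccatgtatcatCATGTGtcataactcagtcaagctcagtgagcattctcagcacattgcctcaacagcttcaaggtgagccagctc
BIRC7, chr20:63235655-63235954, plus strand: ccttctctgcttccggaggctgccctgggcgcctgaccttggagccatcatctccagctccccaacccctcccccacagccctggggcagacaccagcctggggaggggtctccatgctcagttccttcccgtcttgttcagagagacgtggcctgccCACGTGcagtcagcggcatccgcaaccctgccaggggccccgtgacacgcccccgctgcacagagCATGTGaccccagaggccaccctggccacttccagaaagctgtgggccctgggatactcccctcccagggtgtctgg
BAX, chr19:48954625-48954924, plus strand: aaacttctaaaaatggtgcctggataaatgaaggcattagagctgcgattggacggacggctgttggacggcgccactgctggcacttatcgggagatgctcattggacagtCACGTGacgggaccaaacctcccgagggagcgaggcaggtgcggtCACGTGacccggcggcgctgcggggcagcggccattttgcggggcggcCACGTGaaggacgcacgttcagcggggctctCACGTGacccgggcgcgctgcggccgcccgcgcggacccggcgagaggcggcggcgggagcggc

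The BCL2A1 window held 1 CATGTG, whose first base lies 25 bases before the start site. With the T before it, this match extends to TCATGTG, the core of the M-box of pigment gene promoters, which was present in 2.922% of all windows (on either strand, and always overlapping a CATGTG). In a GENCODE annotation of GRCh38 the BCL2A1 gene starts 250 bases further upstream, so the match lies within the transcribed part of that model. BIRC7 held 1 CATGTG at 27 bases and 1 CACGTG at 92 bases before its start, a combination found in 0.7347% of windows. BAX held 4 CACGTG hexamers, at 138, 93, 45 and 14 bases before its start; 5 of 35116 windows had 4 or more, a number set by what BAX itself showed. The GENCODE start of BAX lies 60 bases upstream, which puts the matches at 45 and 14 bases inside that transcribed part. BBC3 held 1 CACGTG, at 232 bases before its start. BCL2, BCL2L1, BAK1, PMAIP1 and BCL2L11 held neither hexamer in these windows, which for BCL2 and BCL2L11 do not reach the GENCODE starts, 359 and 1536 bases upstream. A match is a run of letters and not a measured binding site.

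**Figure D1:**
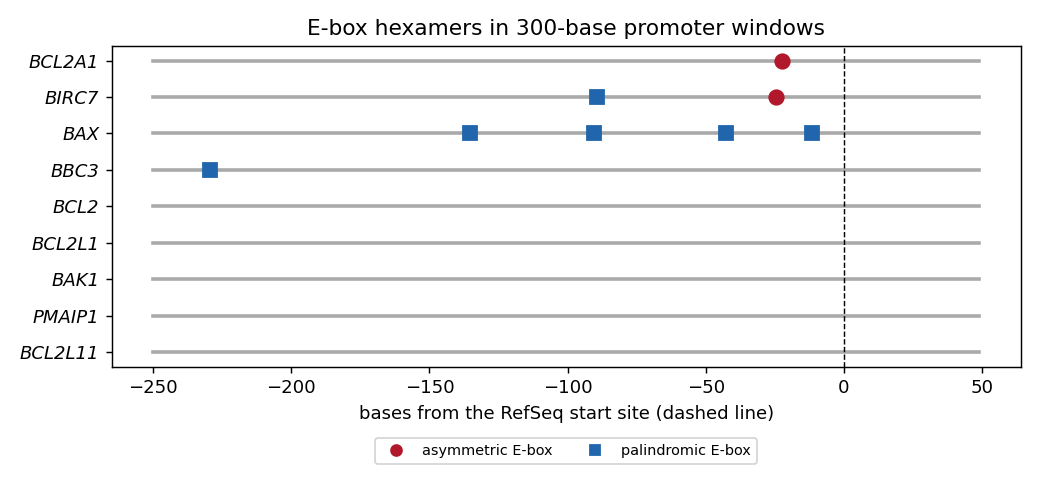
Positions of E-box hexamers in the promoter windows of 9 genes, in bases from the RefSeq start site (dashed line); each grey line is a window (for BCL2L1 a pair of windows drawn as 1 line), circles mark CATGTG and squares CACGTG. BCL2A1 and BIRC7 each have a circle within 30 bases before the start site, and BAX has 4 squares.

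Raised MITF was compared with the empty vector to see how the survival machinery looks when the lineage factor is higher. BCL2A1 and BBC3 rose, and PMAIP1, BAX, MCL1 and BCL2L11 fell, while BCL2, BCL2L1 and BAK1 did not pass the test. Of the 9 tested genes PMAIP1, which encodes the BH3-only protein NOXA, changed most: it fell 2.79-fold. The 6 genes called among 9 tested stand beside 59.4% of all tested genes called in this comparison (28.6% higher and 30.8% lower), so the number of calls by itself does not set these genes apart. Their median log2 fold change was -0.13, and that of all tested genes was 0.0037.

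Lowered MITF was compared with the scrambled siRNA to see the opposite shift, and it was smaller for MITF itself (log2 fold change -0.44 (SE 0.0502), against 1.11 (SE 0.0512) with overexpression). BCL2A1 fell, and PMAIP1 and BCL2 rose. These were 3 of 9 tested genes, beside 35.4% of all tested genes called (18.7% higher and 16.7% lower). Their median log2 fold change was 0.029 among the 9, against -0.0026 over all tested genes. BCL2A1 and PMAIP1 were called in both comparisons, each with opposite signs.

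**Figure D2:**
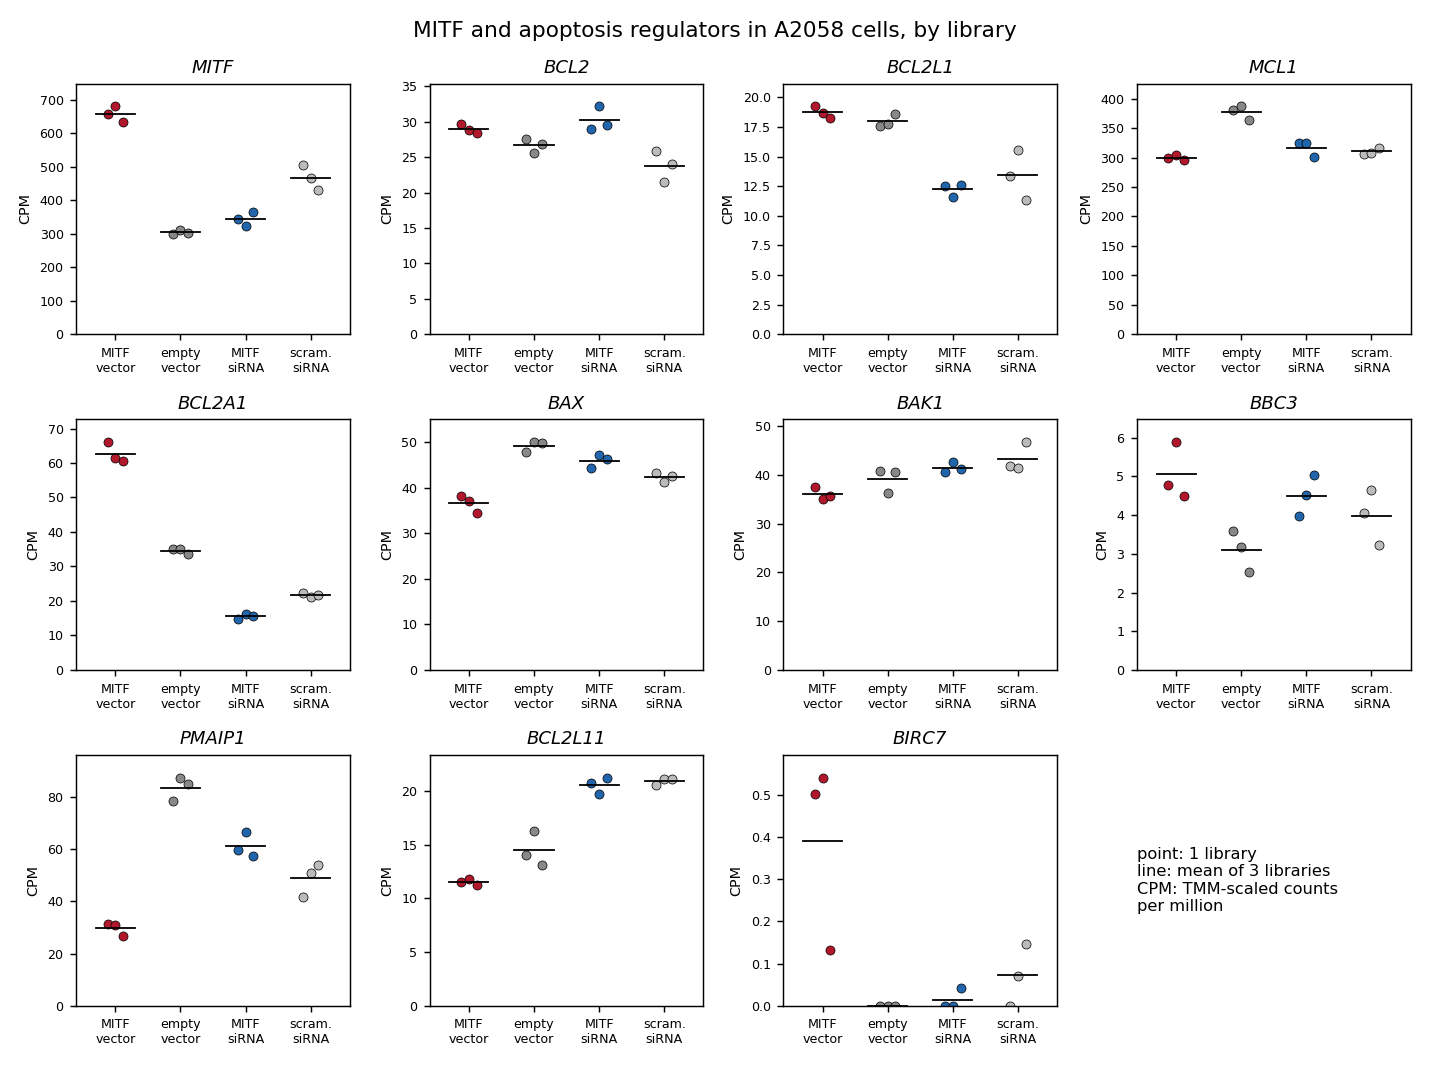
Level of MITF and of the 10 genes in each of 12 libraries, in CPM from 0 upward on each axis; points are libraries and lines are means of 3. BCL2A1 is highest with MITF overexpression (60.5 to 66.0 CPM) and lowest with MITF siRNA (14.8 to 16.3 CPM), and PMAIP1 is lowest with MITF overexpression (26.7 to 31.3 CPM) and highest with the empty vector (78.4 to 87.3 CPM).

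Among the pro-survival genes, BCL2A1 had the widest range. It had 66.0, 61.5 and 60.5 CPM in the MITF overexpression libraries, against 35.0, 35.0 and 33.6 CPM in the empty vector libraries. Every MITF overexpression library lay above every empty vector library, a rise of 1.82-fold (log2 fold change 0.86 (SE 0.0618), adjusted p = 3.22e-14). This and each adjusted p here come from edgeR's quasi-likelihood test, adjusted by Benjamini and Hochberg's method over all tested genes. With MITF siRNA it had 14.8, 16.3 and 15.6 CPM, against 22.3, 21.1 and 21.7 CPM with scrambled siRNA. The groups did not overlap, and BCL2A1 fell 1.39-fold (log2 fold change -0.48 (SE 0.0732), adjusted p = 2.96e-06). Groups that do not overlap were seen for 65.2% of tested genes with overexpression and 44.4% with MITF siRNA. In rank, 8.10% of tested genes had a log2 fold change as high as that of BCL2A1 or higher with overexpression, and 6.12% as low or lower with MITF siRNA.

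The level of BCL2A1 did not follow MITF across all 4 groups. In descending order the groups were MITF overexpression (62.7 ± 2.94 CPM), empty vector (34.5 ± 0.822), scrambled siRNA (21.7 ± 0.601) and MITF siRNA (15.6 ± 0.749; mean ± SD, n = 3 each), with no overlap between neighbours. Scrambled siRNA libraries, which had 1.54-fold more MITF than the empty vector libraries, had 1.59-fold less BCL2A1 (log2 fold change -0.67 (SE 0.0717), adjusted p = 2.37e-09). MITF siRNA libraries likewise had 2.22-fold less BCL2A1 than the empty vector libraries (log2 fold change -1.15 (SE 0.0713), adjusted p = 3.80e-15), with MITF higher by 0.18 on the log2 scale. Vector and siRNA libraries differ in the way nucleic acid was delivered and in selection, and these differences cannot be told apart from MITF in such comparisons.

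BCL2, the founding pro-survival gene of the family, moved with the siRNA and in a direction opposite to MITF. It had 28.9, 32.2 and 29.6 CPM with MITF siRNA, against 25.9, 21.5 and 24.0 CPM with scrambled siRNA. All 3 MITF siRNA libraries lay above the scrambled siRNA libraries, and BCL2 rose 1.27-fold (log2 fold change 0.35 (SE 0.0718), adjusted p = 2.46e-04). Its levels were 29.7, 28.8 and 28.4 CPM with MITF overexpression, against 27.6, 25.6 and 26.8 CPM with the empty vector. The libraries did not overlap there either, but the difference did not pass the test (log2 fold change 0.11, 95% interval -0.03 to 0.26, adjusted p = 0.192). Scaling by total counts alone gave 0.17 and a call (adjusted p = 0.0423). That scaling also moved the median of all tested genes, from 0.0037 to 0.066. Against the empty vector in place of scrambled siRNA, the rise with MITF siRNA did not pass (0.17, adjusted p = 0.0587), while MITF overexpression against scrambled siRNA was called (0.29, adjusted p = 0.00122).

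BCL2L1 encodes BCL-XL, which guards mitochondria in many solid tumours. It had 19.2, 18.7 and 18.3 CPM with MITF overexpression, against 17.6, 17.8 and 18.6 CPM with the empty vector. In the MITF siRNA libraries it had 12.5, 11.6 and 12.6 CPM, against 13.4, 15.6 and 11.3 CPM with scrambled siRNA. Groups overlapped in both comparisons, and neither passed the test (log2 fold changes 0.06, 95% interval -0.12 to 0.24, and -0.13, 95% interval -0.33 to 0.06). A difference was called between siRNA and empty vector libraries. With scrambled siRNA BCL2L1 was 1.34-fold below the empty vector libraries (adjusted p = 0.00127), beside 38.5% of all tested genes called. MITF siRNA libraries were 1.47-fold below the same empty vector libraries (adjusted p = 2.00e-05). Delivery, selection and MITF all differ there and cannot be told apart.

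MCL1, whose short-lived protein binds BAK and the BH3-only proteins, fell with MITF overexpression. It had 299, 305 and 296 CPM in the MITF overexpression libraries, against 380.2, 387 and 364 CPM in the empty vector libraries. The groups did not overlap, and the fall was 1.26-fold (log2 fold change -0.33 (SE 0.0421), adjusted p = 2.72e-08). For MITF siRNA the levels were 326, 324 and 301 CPM, against 306, 309 and 317 CPM with scrambled siRNA, and these groups overlapped (log2 fold change 0.03, 95% interval -0.05 to 0.11). The fall with overexpression depended on the control: against the scrambled siRNA libraries the log2 difference was -0.05 (adjusted p = 0.334), and MCL1 in scrambled siRNA libraries was itself 1.21-fold below the empty vector (adjusted p = 1.95e-06).

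**Figure D3:**
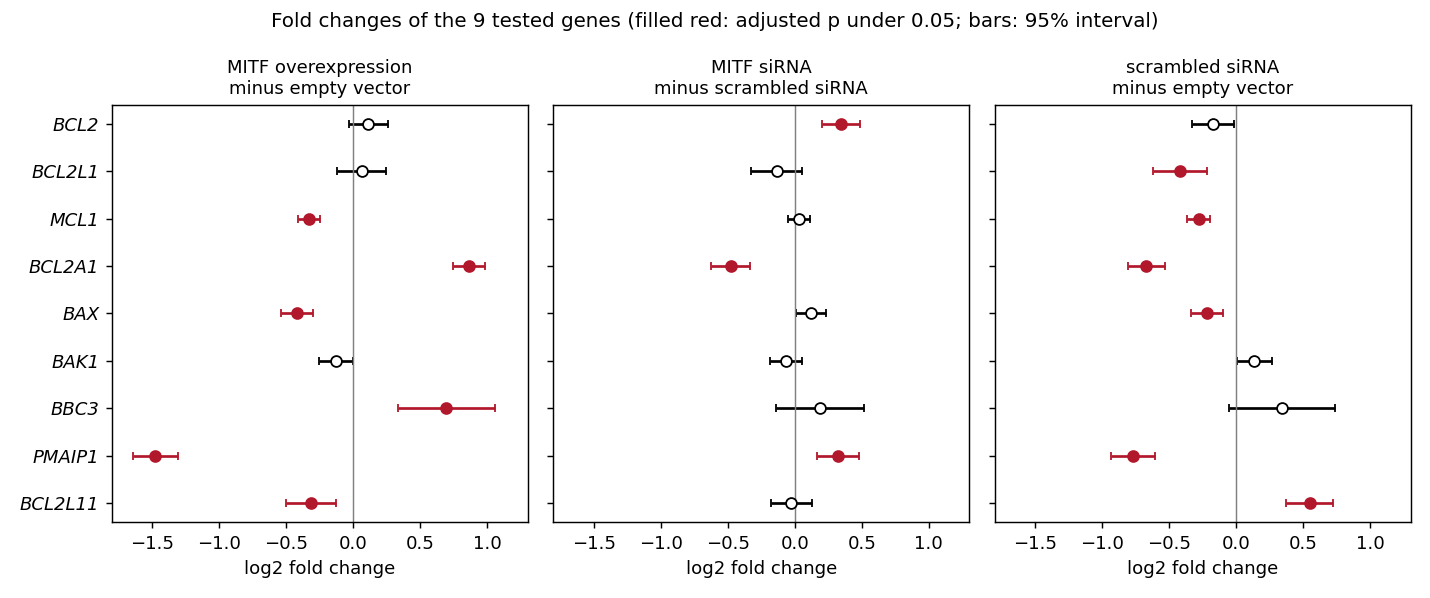
Log2 fold change of the 9 tested genes in 3 comparisons, with 95% intervals (1.96 SE to each side); filled red points have an adjusted p under 0.05. BCL2A1 is at 0.86 with MITF overexpression and -0.48 with MITF siRNA, PMAIP1 is at -1.48 and 0.32, and 6 genes are called between the control groups.

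Of the pore-forming effectors, BAX fell and BAK1 did not pass the test. BAX had 38.2, 37.1 and 34.4 CPM with MITF overexpression, against 47.8, 50.0 and 49.9 CPM with the empty vector. Every MITF overexpression library was below every empty vector library, and BAX fell 1.34-fold (log2 fold change -0.42 (SE 0.0603), adjusted p = 2.71e-07). It had 44.2, 47.2 and 46.2 CPM with MITF siRNA, against 43.2, 41.2 and 42.5 CPM with scrambled siRNA; the libraries did not overlap, but the difference of 0.12 on the log2 scale did not pass the test (95% interval 0.01 to 0.23, adjusted p = 0.108). BAK1 had 37.6, 35.1 and 35.6 CPM with MITF overexpression, against 40.8, 36.2 and 40.5 CPM with the empty vector, which overlapped (log2 fold change -0.13, 95% interval -0.26 to 0.00, adjusted p = 0.0933). Without empty vector replicate 2, the lowest of its group, BAK1 was called lower (-0.17, adjusted p = 0.0345). The MITF siRNA libraries had 40.7, 42.7 and 41.2 CPM, against 41.9, 41.4 and 46.7 CPM with scrambled siRNA, and the log2 fold change was -0.06 (95% interval -0.18 to 0.06).

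The BH3-only genes went different ways. PMAIP1 had 31.3, 31.1 and 26.7 CPM with MITF overexpression, against 78.4, 87.3 and 85.1 CPM with the empty vector. The highest MITF overexpression library was below the lowest empty vector library, and the log2 fold change was -1.48 (SE 0.0855, adjusted p = 1.68e-11). In rank, 3.97% of tested genes had a log2 fold change as low or lower. With MITF siRNA PMAIP1 had 59.8, 66.5 and 57.3 CPM, against 41.9, 50.8 and 53.8 CPM with scrambled siRNA. These groups did not overlap either, and PMAIP1 rose 1.25-fold (log2 fold change 0.32 (SE 0.0813), adjusted p = 0.00436).

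Across the 4 groups PMAIP1 ran in the reverse order of MITF. It was highest with the empty vector (83.6 ± 4.63 CPM), then with MITF siRNA (61.2 ± 4.71), scrambled siRNA (48.8 ± 6.22) and MITF overexpression (29.7 ± 2.57; SD, n = 3 each), and no neighbouring groups overlapped. The difference between the control groups was 1.70-fold (log2 fold change -0.77 for scrambled siRNA minus empty vector, SE 0.0839, adjusted p = 5.74e-07). MITF siRNA libraries lay below the empty vector libraries (log2 fold change -0.44, adjusted p = 1.54e-04) and MITF overexpression libraries below the scrambled siRNA libraries (-0.71, adjusted p = 1.45e-06). BAX had the same order of groups with no overlap between neighbours, with 49.2 ± 1.20 CPM for the empty vector, 45.9 ± 1.51 for MITF siRNA, 42.3 ± 1.02 for scrambled siRNA and 36.6 ± 1.97 for MITF overexpression (SD, n = 3 each). MCL1 had that order too, but its siRNA groups overlapped. The comparisons behind these orders share their control libraries, and the orders were noticed in the values and not tested. How many of all tested genes have this order was not counted, so it is not known to set these genes apart.

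**Figure D4:**
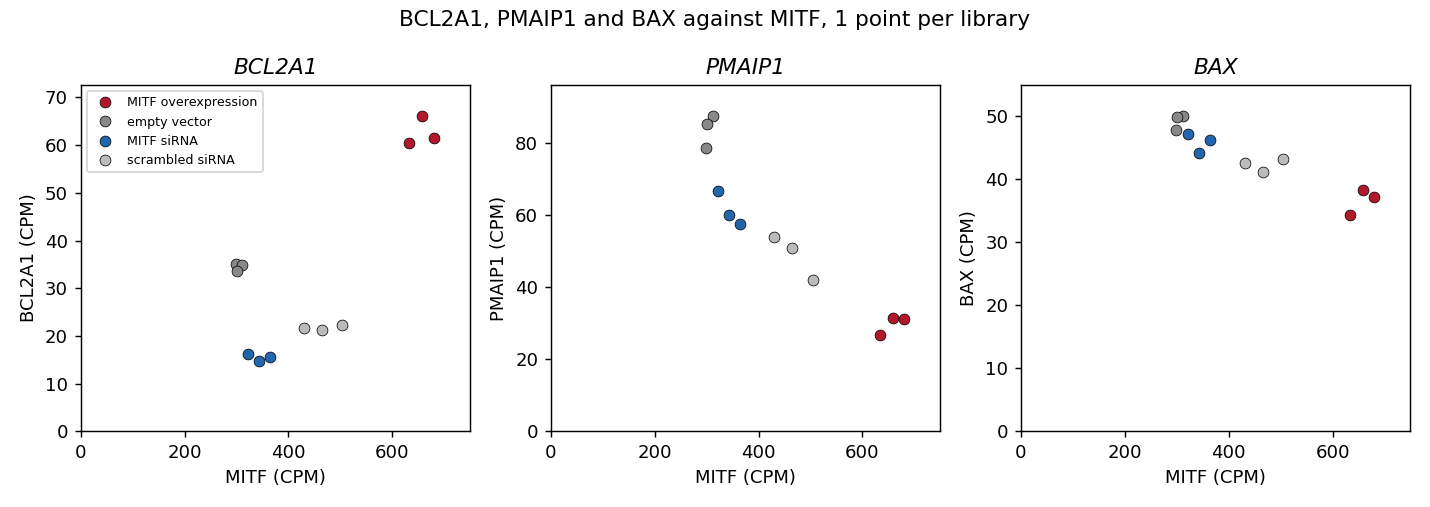
BCL2A1, PMAIP1 and BAX against MITF, both in CPM on linear axes from 0, with 1 point per library coloured by group. PMAIP1 and BAX are lower in each group with more MITF, whereas the empty vector libraries hold more BCL2A1 than the MITF siRNA libraries, the group nearest to them in MITF.

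BBC3, which encodes PUMA, was a low gene with 23 to 120 counts per library. It had 4.79, 5.88 and 4.49 CPM with MITF overexpression, against 3.58, 3.17 and 2.53 CPM with the empty vector. The groups did not overlap, and BBC3 rose 1.62-fold (log2 fold change 0.69 (SE 0.185), adjusted p = 0.00164). Against the scrambled siRNA libraries the rise did not pass (0.35, adjusted p = 0.0748). With MITF siRNA it had 3.97, 4.51 and 5.02 CPM, against 4.06, 4.64 and 3.24 CPM with scrambled siRNA, and these groups overlapped (log2 fold change 0.19, 95% interval -0.14 to 0.51). BBC3, at its low counts, and PMAIP1 moved in opposite directions with MITF overexpression against the empty vector.

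BCL2L11 encodes BIM, the BH3-only protein held down by ERK signalling in melanoma. It had 11.5, 11.8 and 11.3 CPM with MITF overexpression, against 14.0, 16.2 and 13.1 CPM with the empty vector. These libraries did not overlap, and BCL2L11 fell 1.24-fold (log2 fold change -0.31 (SE 0.0948), adjusted p = 0.00495). With MITF siRNA it had 20.8, 19.7 and 21.2 CPM, against 20.6, 21.1 and 21.1 CPM with scrambled siRNA, an overlap with a log2 fold change of -0.02 (95% interval -0.18 to 0.13). BCL2L11 was the gene called higher between the control groups, 1.46-fold above the empty vector with scrambled siRNA (adjusted p = 9.27e-06). In the GENCODE annotation of GRCh38 the gene body of BCL2L11 overlaps MIR4435-2HG on the opposite strand. That RNA also fell with overexpression (log2 fold change -0.49, adjusted p = 6.95e-05). MCL1 shares its strand with ADAMTSL4-AS1, which rose (0.89, adjusted p = 0.0155), and BCL2L1 overlaps ABALON on the opposite strand, which did not pass (0.38, adjusted p = 0.298). The library kit keeps the strand, per the labels, but whether counting used it is not stated, so values of overlapping genes are uncertain to that extent. The counts were made with build hg19, and whether the gene models counted there overlap was not checked.

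BIRC7, the IAP whose promoter window is printed above, had few counts and was not tested. It had 11, 11 and 2 counts in the MITF overexpression libraries, against 0 counts in each of the 3 empty vector libraries. The summed 24 counts correspond to 0.417 CPM, and 3 counts over the empty vector group would give a limit of 0.0947 CPM. The level with MITF overexpression was 4.41-fold that limit, which is not a lower bound of the ratio. The exact 95% counting interval of the ratio, for 24 counts against 0, starts lower, at 3.32-fold. That interval pools the 3 libraries and leaves out the spread between them. MITF overexpression replicate 3, with 2 counts, was itself below 3 counts. MITF siRNA libraries had 0, 0 and 1 count and scrambled siRNA libraries 0, 1 and 2 counts, at or below 3 counts per group, so that no fold is given. Without the filter on low counts the rise with overexpression was called (adjusted p = 2.70e-04), and the difference with MITF siRNA was not (adjusted p = 0.446).

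The other genes followed further orders. BCL2 was highest with MITF siRNA, then MITF overexpression, empty vector and scrambled siRNA, and of these neighbours the libraries of MITF overexpression and empty vector did not overlap. BCL2L1 had the order of BCL2A1, but its vector groups overlapped each other, as did its siRNA groups. BCL2L11 was highest in the overlapping siRNA groups, then with the empty vector and lowest with MITF overexpression, both apart from their neighbours. BAK1 and BBC3 had overlaps between all neighbouring groups.

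Between the control groups, scrambled siRNA against empty vector, 6 of the 9 tested genes were called, beside 38.5% of all tested genes (18.9% higher and 19.6% lower), and 48.0% of tested genes had groups that did not overlap. BCL2L11 was higher, and PMAIP1, BCL2A1, BCL2L1, MCL1 and BAX were lower with scrambled siRNA. The median log2 fold change of the 9 genes was -0.22. BCL2, BAK1 and BBC3 did not pass (adjusted p = 0.0823, 0.109 and 0.188).

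The size of each response was then compared between the methods, as the change for higher minus lower MITF in the vector pair minus the same change in the siRNA pair. The MITF contrast itself was larger in the vector pair, by 0.67 on the log2 scale (SE 0.0714, adjusted p = 3.67e-09), and its part in the differences of other genes was not tested. Of the 9 genes, 7 differed (3 with a higher and 4 with a lower value), beside 45.7% of all tested genes (22.2% higher and 23.5% lower). For PMAIP1 the difference was -1.16 (SE 0.118, adjusted p = 1.61e-07) and for BCL2A1 0.38 (SE 0.0961, adjusted p = 0.00129), in both cases a larger change of the same direction in the vector pair. BCL2, with 0.46 (SE 0.103, adjusted p = 4.16e-04), had 0.11 in the vector pair, which did not pass, and was lower where MITF was higher in the siRNA pair. BCL2L1 and BAK1 were not called different (log2 differences -0.07, 95% interval -0.34 to 0.19, and -0.19, 95% interval -0.36 to -0.01, adjusted p = 0.693 and 0.0833).

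Other genes of the apoptosis pathway were taken as 5 lists of 71 genes, of which 66 were tested. With MITF overexpression 18 rose and 21 fell, and their median log2 fold change was -0.016. With MITF siRNA 13 rose and 11 fell, with a median of 0.011. These are 59.1% and 36.4% of the 66 genes, beside 59.4% and 35.4% of all tested genes in the same comparisons, and the counts by list that follow are to be read against those shares. In the rest of the BCL2 family 3 of 13 tested genes rose and 2 fell with overexpression. HRK, a BH3-only gene first known from neurons, rose 4.03-fold at low counts (206 counts over the MITF overexpression group, against 28 over the empty vector group, adjusted p = 1.05e-07). BMF, a BH3-only gene linked to detachment from matrix, rose 2.30-fold (adjusted p = 1.34e-08), and BECN1, the autophagy protein that BCL2 binds, fell 1.28-fold (adjusted p = 4.99e-07). With MITF siRNA 4 rose and 4 fell in this list, among them BECN1, which rose 1.36-fold (adjusted p = 1.48e-08), BCL2L13 (0.26) and BID (-0.21).

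Among other IAP genes and their antagonists 2 rose and 4 fell of 10 with MITF overexpression, and 1 rose and none fell with MITF siRNA. BIRC3, the IAP known as a target of NF-kappaB, had 18.8, 18.9 and 17.4 CPM with MITF overexpression, against 83.6, 86.8 and 88.5 CPM with the empty vector, a fall of 4.68-fold (adjusted p = 1.94e-23). With MITF siRNA it had 49.5, 59.7 and 50.7 CPM, against 29.8, 34.2 and 34.3 CPM with scrambled siRNA, a rise of 1.62-fold (adjusted p = 5.75e-10). BCL2A1, also known as an NF-kappaB target in other cells, went the opposite way from BIRC3 in both comparisons. Between the control groups both genes were lower with scrambled siRNA (BIRC3 at -1.39, adjusted p = 2.79e-17). The part of NF-kappaB in these changes was not tested. BIRC2 and BIRC5, the gene of survivin, fell 1.93-fold and 1.54-fold with overexpression (adjusted p = 1.29e-17 and 5.49e-13).

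In the apoptosome and caspase list 4 rose and 4 fell of 14 with MITF overexpression, and 4 rose and 1 fell with MITF siRNA. CYCS, the gene of cytochrome c, fell 1.17-fold with overexpression (adjusted p = 9.01e-06). DFFB, a nuclease of dying cells, rose 1.57-fold (adjusted p = 4.16e-05). The gene of the apoptosome scaffold, APAF1, rose in both comparisons (log2 fold change 0.30 with overexpression and 0.25 with MITF siRNA, adjusted p = 7.98e-05 and 7.93e-04).

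Of 11 tested death receptor and adaptor genes 1 rose and 5 fell with MITF overexpression, with a median log2 fold change of -0.17, against 0.0037 for all tested genes. TNFRSF1A, the main receptor for tumour necrosis factor, fell 1.85-fold (adjusted p = 4.24e-16) and TNFRSF10B, a TRAIL receptor, fell 1.33-fold (adjusted p = 4.68e-10). TNFRSF10A, the other death-inducing TRAIL receptor, had 3 counts over the MITF overexpression group and 50 over the empty vector group. By these summed counts its level was 30.2-fold lower (95% counting interval 9.77 to 152). The fit used for the other genes gave a 26.1-fold fall (log2 fold change -4.71), so the size of the fall is uncertain. With MITF siRNA none rose and 2 fell, RIPK1 (-0.25) and CFLAR (-0.15). Among upstream regulators of the 10 genes, 8 rose (with MITF among them) and 6 fell of 18 with overexpression. MYC rose 1.94-fold (adjusted p = 1.16e-17), and NFKB1, a subunit of NF-kappaB, fell 1.82-fold (adjusted p = 2.53e-17). With MITF siRNA 4 rose and 4 fell. The p53 inhibitor genes MDM2 and MDM4 went opposite ways, with MDM2 at 0.23 and MDM4 at -0.29 (adjusted p = 5.51e-05 and 3.59e-04).

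**Figure D5:**
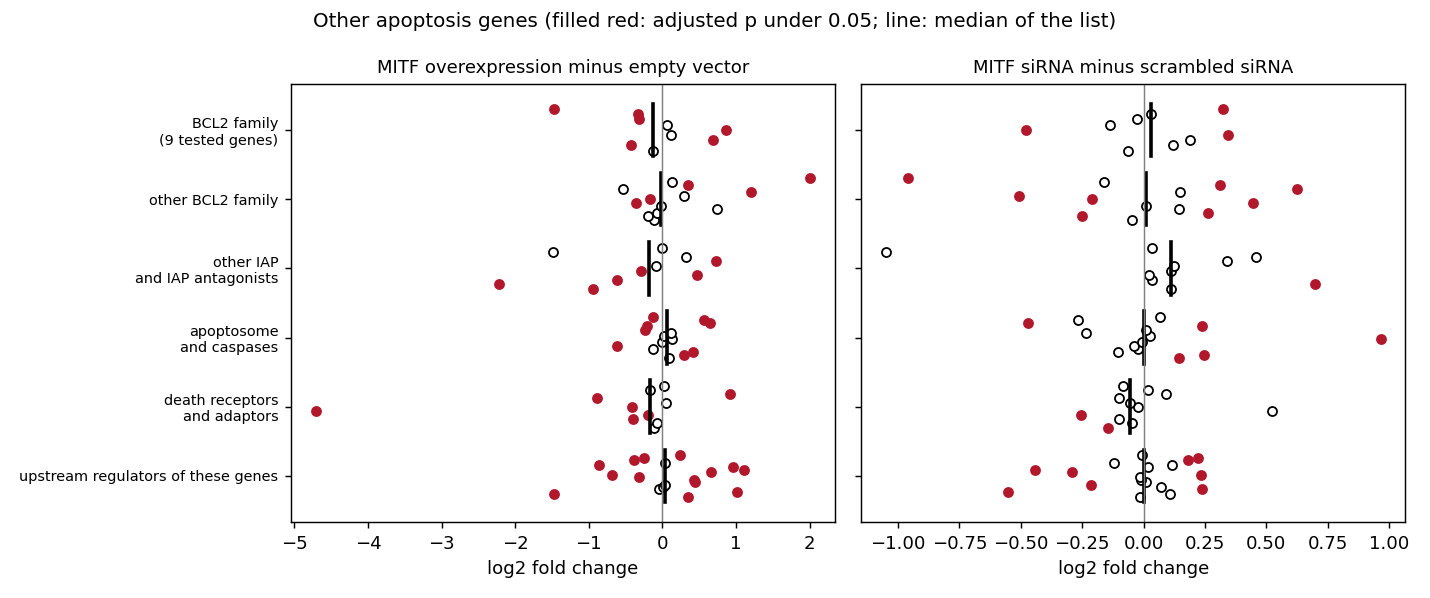
Log2 fold changes of the 9 tested genes (top row) and of the 5 other apoptosis lists with MITF overexpression (left) and MITF siRNA (right; the axes differ in range), 1 point per gene and a line at each list's median. Filled red points have an adjusted p under 0.05; medians lie between -0.18 and 0.11, while single genes reach from -4.71 to 2.01 on the left.

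The genes whose profiles over the 12 libraries were most like that of BCL2A1 were RASEF, CREM and TLCD2, with root mean square differences of 0.0996, 0.162 and 0.176 in log2 CPM after each profile was centred on its mean, against an SD of 0.786 for BCL2A1 itself. RASEF, a Rab-like GTPase gene, rose with MITF overexpression (log2 fold change 0.78, adjusted p = 1.03e-10) and fell with MITF siRNA (-0.44, adjusted p = 3.60e-04). CREM, a cAMP-responsive transcription factor gene, and TLCD2 did likewise (0.95 and 0.98 with overexpression, -0.30 and -0.47 with MITF siRNA). Among the closest to BCL2 were RIT1 and SRD5A1 (0.0432 and 0.0621, against an SD of 0.155), and among the closest to the sparse BIRC7 were OPRL1 and CHAC1 (0.352 and 0.371, against an SD of 0.893). The profiles mostly reflect the 4 group means, so likeness says little beyond a shared order of groups. As these genes were picked by likeness in the same libraries, their changes in the comparisons largely follow from that choice.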

How the data were processed

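RNA was measured in 12 libraries of A2058 cells. The authors deposited raw counts of reads for each gene. Per the submitters' processing notes, the tools were featureCounts 1.6.3, STAR 2.6.0, SAMtools 1.10 and bcl2fastq 2.18.0, with the build hg19; their settings are not stated. A file of read file names was not used.

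Genes were kept by edgeR's filterByExpr (minimum count 10; 14297 of 26364 genes, over 99.9% of each library's counts), scaled by TMM and fitted together over all 12 libraries by the quasi-likelihood method (edgeR 4.0.16, limma 3.58.1, R 4.3.3). Calls are Benjamini-Hochberg adjusted p-values under 0.05 over all tested genes. SE is the log2 fold change divided by the square root of F, and 95% intervals are 1.96 SE. This normal multiple makes them somewhat narrower than the quasi-likelihood test implies. For BAK1 between the control groups the interval was 0.004 to 0.265, while that test gave an unadjusted p = 0.0508. The floor of 3 counts, which a count of 0 cannot exclude, is 0.127 to 0.413 CPM by library. Floors and counting intervals (exact binomial) cover counting error only. The steps were also run on simulated data with few changed genes, in equal numbers up and down and in a single group per comparison. Far more genes were called in the real libraries, so that run does not vouch for the scaling or the calls here. Promoter windows are from RefSeq GRCh38.p14, with no coordinates taken from hg19.

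The genes, lists and tests were chosen with earlier results of these data known. The rule for named genes takes the 10 genes, MITF, up to 3 called genes per other list and comparison by adjusted p, and the 3 profiles most like BCL2, BCL2A1 and BIRC7, leaving out Y-linked genes, pseudogenes and placeholder names; the text gives a part of them, and some named by the rule are not reported here. Alternatives were another scaling, no filter, DESeq2 1.42.0, a fit of the compared groups alone, a replicate block, leaving out each library and, added after the data were seen, exchanged control groups.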

Additional observations from a re-analysis of the deposited data

Results flagged for a closer look

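The response to higher against lower MITF differed between the vector pair and the siRNA pair in 7 of the 9 tested genes, beside 45.7% of all tested genes; each value is the log2 change in the vector pair minus that in the siRNA pair, and the MITF contrast itself differed by 0.67.

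For PMAIP1 the difference was -1.16, from a change of -1.48 in the vector pair. BCL2A1 differed by 0.38 and MCL1 by -0.30 (adjusted p = 7.77e-05). BBC3 differed by 0.88 (adjusted p = 0.00399), with a change of 0.69 in the vector pair. BAX differed by -0.30 (adjusted p = 0.00326). BCL2 differed by 0.46. BCL2L11 differed by -0.34 (adjusted p = 0.0239), a call that ended in DESeq2 (adjusted p = 0.0760) and without empty vector replicate 2 (-0.28, adjusted p = 0.0708).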

How the results depend on the processing

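Exchanging the control groups changed the results most. With the empty vector as control for MITF siRNA, 6 of the genes were called, against 3 with scrambled siRNA (6103 and 5057 of 14297 tested genes), and 1 call, the fall of BCL2A1, was shared. Log2 fold changes turned sign there for MITF (0.18), PMAIP1 (-0.44), BCL2L11 (0.52), MCL1 (-0.25), BAX (-0.10) and BAK1 (0.073), of which MITF, PMAIP1, BCL2L11 and MCL1 were called, and BCL2L1 (-0.55) and BBC3 (0.53, adjusted p = 0.0214) gained a call. With scrambled siRNA as control for MITF overexpression, 7 genes were called, 4 of them shared with the 6 called against the empty vector (7231 and 8494 of all tested genes). There BCL2 (0.29), BCL2L1 (0.48, adjusted p = 5.63e-05) and BAK1 (-0.26, adjusted p = 6.36e-04) gained a call, and MCL1 and BBC3 lost it. MCL1 with MITF siRNA, near 0 in the first place, also turned to -0.0015 with total counts as scaling and ranged from -0.0013 (without MITF siRNA replicate 2) to 0.058 over fits without single libraries, and the difference between methods of BCL2L1 ranged from -0.19 to 0.044 (without scrambled siRNA replicate 2); none of these was called.

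Leaving out single libraries gave 6 to 7 genes called with MITF overexpression, 3 with MITF siRNA, 6 to 7 between the controls and 7 to 8 for the difference between methods, while over all tested genes 7662 to 8251, 4119 to 4741, 4622 to 5108 and 5929 to 6817 were called. The cause of these changes was not tested. Without empty vector replicate 2, without MITF overexpression replicate 1 and without MITF siRNA replicate 2 BAK1 was called different between methods (-0.24, -0.24 and -0.22), and without scrambled siRNA replicate 1 BCL2 was called lower between the controls (-0.24, adjusted p = 0.0294). The calls of BCL2A1 and PMAIP1 kept their direction and side of the threshold under each scaling, without the filter, in DESeq2, with the compared groups alone, with the block and without any single library.

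The groups share replicate numbers, which the labels do not tie to a batch. Same-numbered libraries did not deviate together from their group means (correlations over genes -0.12 to 0.064, n = 18 pairs). With the replicate block 6, 3, 6 and 7 genes were called, as without it (8408, 4960, 5394 and 6456 over all genes). BIRC7 had too few counts for a test, and BBC3 had 23 to 120 counts per library.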
